A study of Mus musculus with 2 samples.

Results

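The circadian clock genes described here were counted in mouse heart RNA together with Thra and Sphk2, the genes that lie opposite 2 of them. They are 10 of the 25004 genes in the deposited counts. Dbp, Nr1d1, Nr1d2, Per1, Per2, Per3, Tef and Bhlhe41 belong to the clock. Thra overlaps Nr1d1 and Sphk2 overlaps Dbp on the opposite strand. The genes were chosen by their counts in these same libraries, seen in an earlier analysis, so every difference between the libraries given for them is a description and none is supported by a test. Messenger RNA was sequenced in 1 library of non-transgenic control hearts and 1 library of hearts carrying transgenic cMyBP-C, the cardiac form of myosin binding protein-C, lacking the C0-C1f region (genotype label cMyBP-C delta C0-C1f transgenic). All mice were FvB/N, aged 12 weeks, and each library combined 3 hearts. The promoter of the transgene, the state of the endogenous gene and the time of day at which hearts were taken are not stated in any source used here.

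The circadian clock is a feedback loop of transcription factors that runs in most cells, the cardiomyocyte included. CLOCK and BMAL1 activate genes through E-box sequences, among them the Per and Cry genes, whose proteins repress CLOCK and BMAL1 in turn, and Nr1d1 and Nr1d2, whose proteins REV-ERBα and REV-ERBβ repress Bmal1. DBP and TEF are clock-controlled factors of the PAR bZIP family that bind D-box sequences. Transcripts of these genes rise and fall over the day, and their peaks do not fall together.

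The counts summed to 170543 reads in the non-transgenic library and 190824 reads in the transgenic one, so 1 count stood for 6.22 and 4.94 CPM. CPM puts a count on the scale of a shared library size, here after TMM normalisation, which sets the totals so that most genes have a ratio near 1. Of the heart muscle markers, 9 of 10 had a count, and their sum was 28590 CPM in the non-transgenic library and 38332 CPM in the transgenic one; Tnnt2 had none. Of 6 fibroblast markers all had a count (310.8 and 187.8 CPM summed), as did 5 of 6 endothelial (1417 and 1280 CPM, Pecam1 at 0), 2 of 4 smooth muscle and pericyte (441.4 and 835.3 CPM, Myh11 and Pdgfrb at 0) and 3 of 5 leukocyte markers (68.4 and 93.9 CPM, Ptprc and Cd3e at 0). Of the skeletal muscle markers, 2 of 4 had a count, Ckm and Acta1 (2126 and 1962 CPM summed, Myh1 and Myh4 at 0). Ckm alone had a mean of 2042 CPM over both libraries, so that sum is nearly all Ckm. Neither the red cell nor the neuron markers had any count. The part of these differences in the results was not tested, and in such bulk RNA fewer cells of a type and less RNA per cell cannot be told apart. Genes whose exons overlap an exon on the other strand were 23.5% of genes and held 71.7% and 67.3% of the counts. With 1 library per group, no difference has a replicate check, and every interval given is at 95% and covers counting error only. Reads are not independent molecules, so the intervals may be too narrow even for that.

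For 2 of the clock genes, bases of the last exon also belong to the gene opposite. Nr1d1 (chromosome 11, 98767932 to 98775333, minus strand, GRCm38) and Thra (98740638 to 98769006, plus strand) share 263 bp of exon, at chr11:98768157-98768419. Dbp (chromosome 7, 45705088 to 45710203, plus strand) and Sphk2 (45709467 to 45718002, minus strand) share 539 bp, at chr7:45709665-45710203. The library kit keeps the strand of each read, but the strand setting of the counting is not stated in any source used here. The 30 bases at the middle of each shared stretch, chr11:98768274-98768303 and chr7:45709920-45709949, are shown as they read in each messenger RNA, since the same bases are counted for one gene or for the other by strand alone.
Nr1d1: ctgctgctcaagctgccggacctgcggacc
Thra: ggtccgcaggtccggcagcttgagcagcag
Dbp: ctcagacttacacctgacttcctccttgtc
Sphk2: gacaaggaggaagtcaggtgtaagtctgag
Each sequence is the reverse complement of its partner. A read in a shared stretch could therefore belong to either gene of the pair. With a setting that does not match the kit, the whole count of Nr1d1, Thra, Dbp or Sphk2 would stand for RNA of the other strand, and the counts, ratios and levels given under each name could then belong to its partner; which holds was not tested.

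**Figure D1:**
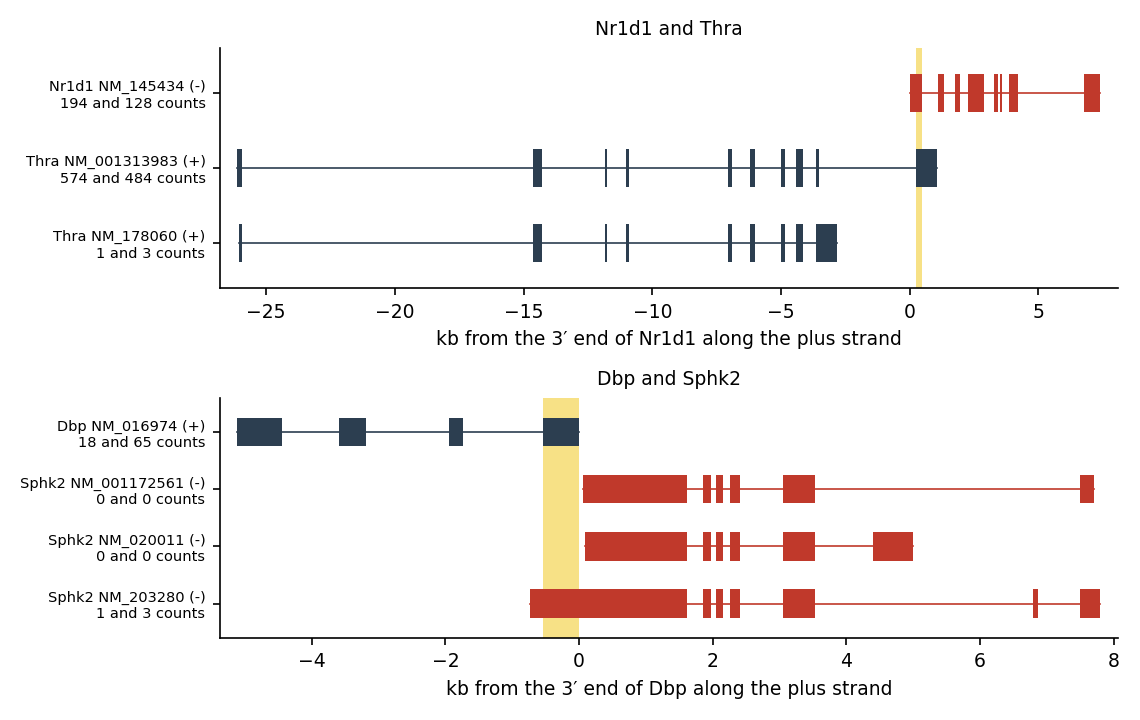
Exons (boxes) of the counted RefSeq transcripts of Nr1d1 with Thra and of Dbp with Sphk2, in kb along the plus strand from the 3′ end of Nr1d1 or Dbp, with the counts in the non-transgenic and transgenic library at the left; red is the minus strand, dark blue the plus strand, and yellow marks shared exon bases. Of the 2 Thra transcripts, the one that reaches Nr1d1 had 574 and 484 counts and the other 1 and 3.

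The promoters of Dbp, Nr1d1 and Nr1d2 are shown because these 3 clock genes held nearly all of the clock genes' counts. RefSeq windows of GRCm38.p6 from 250 bases before to 50 bases after a gene's start were searched on both strands for the E-box (CACGTG), a variant E-box (CACGTT), the D-box (TTATGTAA, TTACGTAA, TTATATAA or TTACATAA) and the nuclear receptor site AGGTCA. RefSeq's start lies inside the GENCODE gene for Dbp and Nr1d2, so that 159 and 21 of the 250 bases before it do too, and these are not printed. The printed bases lie at chr7:45704997-45705087 (plus strand) for Dbp, chr11:98775378-98775627 (minus strand) for Nr1d1 and chr14:18239128-18239356 (minus strand) for Nr1d2. Capitals mark a match, of which each holds at most 1.
Dbp: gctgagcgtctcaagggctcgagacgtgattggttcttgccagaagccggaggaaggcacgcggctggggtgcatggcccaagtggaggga
Nr1d1: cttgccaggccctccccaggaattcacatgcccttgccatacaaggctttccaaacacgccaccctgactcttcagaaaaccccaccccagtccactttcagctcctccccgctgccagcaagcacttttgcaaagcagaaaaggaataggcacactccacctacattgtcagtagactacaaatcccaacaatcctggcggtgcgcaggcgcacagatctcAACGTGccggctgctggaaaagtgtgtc
Nr1d2: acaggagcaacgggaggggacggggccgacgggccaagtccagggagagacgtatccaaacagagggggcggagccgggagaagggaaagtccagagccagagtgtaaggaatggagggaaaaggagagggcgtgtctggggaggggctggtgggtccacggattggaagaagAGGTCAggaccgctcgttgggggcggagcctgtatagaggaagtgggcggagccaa
In Nr1d1 the match is the variant E-box, read on the other strand as AACGTG, which begins 28 bases before the RefSeq start. In Nr1d2 it is the receptor site, which begins 77 bases before the RefSeq start. Dbp had no match in its whole window. Windows matched 8 of the 10 genes by symbol, 11 windows in all; Thra and Per2 had none. The E-box was in 4 of these 11 windows (1 of Per1, both of Tef, and Bhlhe41) against 7.15% of all 32851 windows, and the variant E-box was in that of Nr1d1 alone against 4.68%. Per3 was the only one of these genes with a D-box in its window, which 1.59% of all windows held, and Nr1d2 and Per1 had the receptor site, against 16.3%. A match describes letters and does not show that a factor binds there.

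Dbp, the clock's output factor, was counted higher in the transgenic library, and Nr1d1, the repressor, was counted lower. Dbp had 18 counts in the non-transgenic library (counting interval 10.7 to 28.4) and 65 in the transgenic (50.2 to 82.8), or 112 and 321 CPM. After normalisation the transgenic count was 2.87 times the non-transgenic one (1.68 to 5.14). The intervals of the 2 Dbp counts, which are not normalised, did not overlap. This gives no support for a difference, since Dbp was chosen by these same counts. Nr1d1, which encodes REV-ERBα, had 194 counts (168 to 223) and 128 (107 to 152), or 1206 and 633 CPM. It was 1.91-fold lower in the transgenic library (1.52 to 2.40). The intervals of its unnormalised counts did not overlap either, with the same limit.

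Nr1d2 encodes REV-ERBβ, the close relative of REV-ERBα, and its counts lay on the same side as Dbp. It had 12 counts (6.20 to 20.96) in the non-transgenic library and 29 (19.4 to 41.6) in the transgenic one, or 74.6 and 143 CPM. The ratio was 1.92 (0.951 to 4.13), an interval that includes 1. With DESeq2 size factors the interval was 1.03 to 4.46 and with total counts alone 1.07 to 4.65, so whether Nr1d2 is called higher depends on the scaling. Nr1d2 (chromosome 14, 18204054 to 18239127, minus strand) shares no exon bases with an annotated gene on the other strand. Gm44469 and Gm7084 lie 3301 and 3295 bp from it there and were not analysed here.

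A gene was called higher or lower if its ratio was at least 1.5-fold and its counting interval lay on the same side of 1. Of the 10 genes, 4 had more than 3 counts in a library, the minimum set for a ratio. Among them Dbp was called higher, Nr1d1 lower, and Nr1d2 and Thra neither. Over all 4236 genes with a ratio, 3.42% were called higher and 5.90% lower, and among the 1784 of them whose exons overlap an opposite exon, as those of Dbp, Nr1d1 and Thra do, the shares were 2.47% and 9.25%. More counts make a call easier, and among the 1349 genes with a summed count of 30 or more, which all 4 reached, the shares were 6.23% and 12.1%. At 2-fold only Dbp of the 4 was called, against 2.48% of all genes called higher and 3.71% called lower. The median log2 ratio of the 4 was 0.19, between -0.93 for Nr1d1 and 1.52 for Dbp, beside 0.05 for all genes with a ratio. Where both libraries together gave 30 counts or more, the median was -0.26 in the 781 overlapping genes and 0.18 in the 234 with no opposite exon within 5 kb, so the log2 ratios of Nr1d1 and Thra (-0.57) lay on the side of their class and that of Dbp did not. Centred on the median of their class, the ratios were 3.43 for Dbp, 0.627 for Nr1d1, 1.85 for Nr1d2 and 0.805 for Thra. The part of strand class in these differences was not tested.

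**Figure D2:**
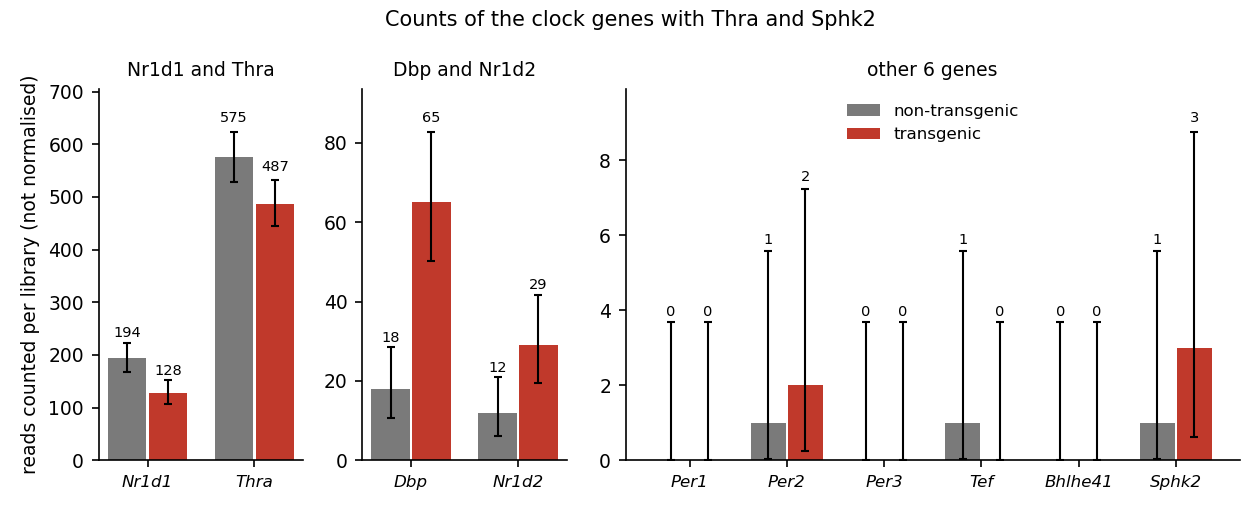
Reads counted per library for each of the 10 genes, not normalised, in 3 panels with their own vertical axes; bars are the single library of each group and error bars the exact 95% Poisson interval of the count. Dbp stands at 18 and 65 and Nr1d1 at 194 and 128, while the 6 genes at the right have at most 3 counts.

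Counts of clock genes set against each other within a library do not depend on how the libraries are scaled. For each Nr1d1 count there were 0.0928 Dbp counts in the non-transgenic library and 0.508 in the transgenic one, a ratio between libraries of 5.47 (3.03 to 10.2). Nr1d2 per Nr1d1 went from 0.0619 to 0.227, a ratio of 3.66 (1.73 to 8.16). Both intervals lie above 1, but the genes were chosen by their counts in these same libraries, so this gives no support for a difference. Dbp per Nr1d2 was 1.5 and 2.24, a ratio of 1.49 (0.575 to 3.77), an interval that includes 1. Relative to Nr1d1, Nr1d2 was thus counted higher in the transgenic library, although Nr1d1 had more counts in both libraries. Such pair ratios can still carry a difference between strand classes, and Nr1d2 is not in the class of Dbp and Nr1d1. Centring within class moved the library ratio from 1.92 to 1.85 for Nr1d2, 0.525 to 0.627 for Nr1d1 and 2.87 to 3.43 for Dbp. Pair ratios were not centred, so the part of strand class in those with Nr1d2 was not tested.

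Thra, the thyroid hormone receptor gene TRα, had the most counts of the 10 genes and was lower in the transgenic library by a little under the 1.5-fold set for a call. It had 575 counts (529 to 624) in the non-transgenic library and 487 (445 to 532) in the transgenic one, or 3575 and 2407 CPM. The ratio was 0.673 (0.596 to 0.761). With upper-quartile scaling it was 0.659 (0.583 to 0.745) and was called lower. Of the 2 counted Thra transcripts, NM_001313983 reaches into the last exon of Nr1d1, as the splice form TRα2 is known to do, and NM_178060 ends upstream of it. The first held 574 of 575 counts (99.8%, exact interval 99.0% to 100%) and 484 of 487 (99.4%, 98.2% to 99.9%). NM_178060 had 1 and 3. Matched to GENCODE transcripts, 912 bp of NM_001313983 and 706 bp of NM_178060 belong to no other counted transcript of Thra. Per kilobase of such bases the counts were 629 and 531 for NM_001313983 and 1.42 and 4.25 for NM_178060. Of the 912 bp, 263 lie opposite Nr1d1 and 649 do not.

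As parts of their shared locus, Thra and Nr1d1 were both lower in the transgenic library. Nr1d1 held 25.2% of the counts of the pair in the non-transgenic library (exact interval 22.2% to 28.5%) and 20.8% in the transgenic (17.7% to 24.2%). These intervals overlap. Nr1d1 per Thra had a ratio between libraries of 0.779 (0.599 to 1.01), an interval that just includes 1, so a difference between the 2 genes was not detectable at this depth. Of the 2721 exonic bp of Nr1d1, 263 lie opposite Thra, and counts do not say where along a transcript a read fell.

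Sphk2, which encodes a sphingosine kinase, had almost no counts beside Dbp. It had 1 count in the non-transgenic library and 3 in the transgenic one, all on NM_203280, the only one of its 3 counted transcripts that reaches into the last exon of Dbp. NM_203280 has 971 bp that belong to no other counted transcript of Sphk2, and the others have 611 and 0 bp. If shared reads were not counted, the transcript with 0 bp could not receive a count. Dbp held 94.7% of the counts of this pair in the non-transgenic library (74.0% to 99.9%) and 95.6% in the transgenic one (87.6% to 99.1%), and the intervals overlap almost wholly. Of the 1837 exonic bp of Dbp, 539 lie opposite Sphk2. The shares of the pair were not corrected for the length over which each gene could be counted. Sphk2 also shares 373 bp of exon with the ribosomal protein gene Rpl18, which had 2 counts and 1, and has Car11 (1 and 1) and Fam83e (0 and 0) within 5 kb on the other strand.

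**Figure D3:**
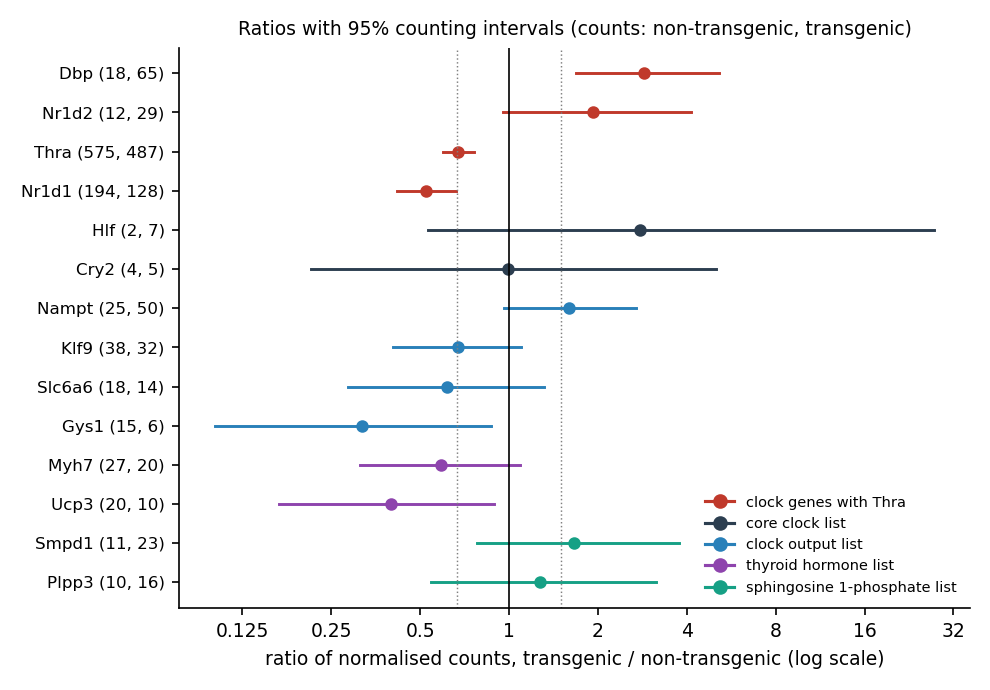
Normalised transgenic counts divided by non-transgenic ones, on a log axis, with 95% counting intervals as lines, for the 4 genes with a ratio, for both core clock genes with one, and for genes of the other lists that were called or had a summed count of 20 or more; dotted lines are 1.5-fold in either direction. Dbp lies wholly above 1, Nr1d1 and Thra wholly below, and Nr1d2 reaches across 1.

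Ordered by level per length, in CPM per kilobase of exon, the 4 genes stood in the same order in both libraries, at other distances. In the non-transgenic library Thra was at 1458 (interval 1341 to 1582), Nr1d1 at 443 (383 to 510), Dbp at 60.9 (36.1 to 96.3) and Nr1d2 at 16 (8.27 to 27.9). No neighbours in that order had overlapping intervals. In the transgenic library Thra was at 982 (896 to 1073), Nr1d1 at 233 (194 to 276), Dbp at 175 (135 to 223) and Nr1d2 at 30.7 (20.6 to 44.1). There the levels of Nr1d1 and Dbp were not separated, since their intervals overlap. These levels divide by the whole transcript length. If the counts stood for RNA of the other strand, that length would not apply, and the order could differ. Which holds was not tested. Over the bases specific to NM_001313983 alone, Thra would stand at 3913 and 2623 CPM per kilobase, so its distance from Nr1d1, which has a single transcript, depends on whether reads shared by its transcripts were counted.

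**Figure D4:**
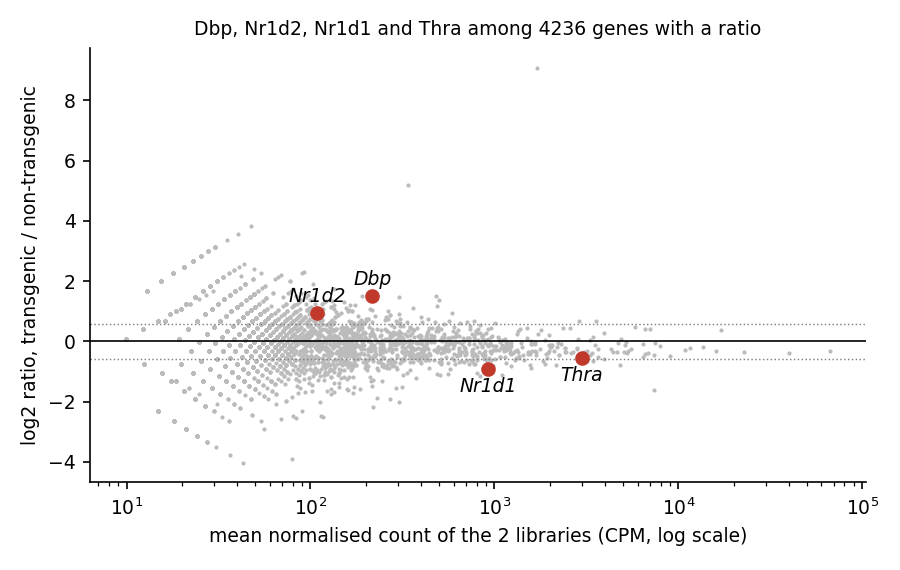
Log2 ratio, transgenic over non-transgenic, against the mean normalised count of both libraries in CPM (log axis) for the 4236 genes with a ratio (grey); red points are Dbp, Nr1d2, Nr1d1 and Thra, and dotted lines are 1.5-fold in either direction. Dbp, at 1.52, and Nr1d1, at -0.93, lie outside the dotted lines on different sides.

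The Period genes, whose proteins form the negative arm of the clock, and the remaining members were at the limit of detection. Per1 had 0 counts in both libraries, as had Per3 and Bhlhe41, which encodes the E-box repressor DEC2. Per2 had 1 count in the non-transgenic library and 2 in the transgenic one. Tef had 1 and 0. A count of 0 was taken to allow up to 3 counts, or 18.6 CPM in the non-transgenic library and 14.8 CPM in the transgenic one. The exact interval plotted for a count of 0, which leaves out an equal share at both ends, reaches somewhat higher, to 3.69 counts. No ratio was given for these genes. Per1, Per3, Tef, Bhlhe41 and Sphk2 each have more than 1 counted transcript, and reads shared between transcripts of a gene may not be counted for either. Among the 7929 genes with several transcripts, 85.1% had no count in either library, against 58.9% of the 17075 genes with a single one. Of the 2 transcripts of Per1, 38 and 73 bp belong to no other transcript of the gene. The 3 transcripts of Per3 matched 1 GENCODE transcript and could not be told apart. Per2, with 1 transcript of 5833 bp, also had few counts. The part of shared reads in these low counts was not tested. A count of 0 here does not show that the gene was silent in these hearts.

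Opposite the Period genes, Tef and Bhlhe41, the annotated genes that were analysed had few or no counts. Per1 (chromosome 11, 69095217 to 69109960, plus strand) and Per2 (chromosome 1, 91415982 to 91459324, minus strand) have no exon of an opposite gene within 5 kb. Per3 (chromosome 4, 151003652 to 151044665, minus strand) has the urotensin gene Uts2 at 1842 bp, with 2 and 3 counts. Tef (chromosome 15, 81802421 to 81826863, plus strand) shares 193 bp with the antisense gene Gm17597, which had no count in either library. Bhlhe41 (chromosome 6, 145858243 to 145865558, minus strand) shares 1280 bp over all its annotated exons with Gm43909, which was not analysed here. The counted transcripts of Bhlhe41 have 647 and 726 bp opposite an exon.

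Other genes of the core clock were barely counted. Of 23 genes in a list of clock factors, kinases and ligases, 10 had a count and 2 a ratio, and none was called in either direction. Cry2, a partner of the Period proteins, had 4 and 5 counts, a ratio of 0.994 (0.214 to 5.01). Hlf, the third PAR bZIP factor beside Dbp and Tef, had 2 and 7, a ratio of 2.78 (0.530 to 27.5). Arntl, which encodes BMAL1, had 0 counts in both libraries, and Clock had 0 and 1. Neither the positive arm of the loop nor its Cryptochromes could be compared with so few counts. For Cry2 the interval spans from far below to far above 1. Arntl and Clock each have 3 counted transcripts, and reads shared between transcripts of a gene may not be counted for any. The part of shared reads and of depth in these low counts was not tested.

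Genes named as clock outputs gave 8 ratios among 24 listed, and 1 was called. Gys1, muscle glycogen synthase, was 3.14-fold lower in the transgenic library (1.15 to 9.89) with 15 and 6 counts; none was called higher. Over all genes with a ratio 3.42% were called higher and 5.90% lower, so 1 call among 8 is no result about the list. The median log2 ratio of the 8 was -0.80. Nampt, an enzyme of the pathway that makes NAD from nicotinamide, and Klf9 had the most counts of the list and are named for that, outside the rule for named genes. Nampt, with 25 and 50 counts, had a ratio of 1.59 (0.965 to 2.68). Klf9, a factor that also responds to thyroid hormone, had a ratio of 0.670 (0.405 to 1.10) with 38 and 32 counts. Both intervals include 1. Scaled by total counts, or by the size factors of DESeq2, 1 gene of this list was called higher.

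Genes of thyroid hormone action gave 11 ratios among 28 listed. Ucp3, a mitochondrial uncoupling protein of muscle, was 2.52-fold lower (1.12 to 6.02) with 20 and 10 counts, and none was called higher; with total counts alone none was called lower. Beside the 5.90% of all genes called lower, 1 call among 11 is no result about this list either. The median log2 ratio was 0.08. Thrb, the gene of the other thyroid hormone receptor, and the deiodinase genes Dio1, Dio2 and Dio3 had 0 counts in both libraries. The textbook target gene Myh6 had 0 counts and 1, and Atp2a2, another, had 3 and 4. Both have several counted transcripts and exons that overlap an exon on the other strand. The part of strand and of shared reads in these counts was not tested, and they do not show that either gene was little expressed. Genes that make, break down or bind sphingosine 1-phosphate gave 11 ratios among 26 listed, with none called and a median of 0.67. Smpd1, acid sphingomyelinase, had a ratio of 1.66 (0.779 to 3.78) with 11 and 23 counts. Plpp3, a lipid phosphatase, had a ratio of 1.27 (0.543 to 3.14) with 10 and 16. Sphk1, the other sphingosine kinase gene, had 1 count in each library. Most ratios in these lists rest on fewer than 10 counts in each library, and nothing is read from their medians against the 0.05 of all genes.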

How the data were processed

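The authors deposited unnormalised read counts, 1 per RefSeq transcript. STAR, HTSeq and mm10 are named, per the submitters' processing notes; versions, annotation and strand setting are not stated in any source used here. Poly-T beads and a strand-keeping kit were used, per the labels' protocols. Of 41449 transcript accessions, 41252 were named from RefSeq (GRCm38.p6) and 99 from GENCODE M21, and counts were summed per gene; 98 unnamed accessions (1.81% and 1.66% of counts) stayed as rows of their own. Coordinates are GENCODE's on GRCm38, the assembly also called mm10.

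Totals were scaled with TMM factors (0.943 and 1.06) from edgeR 4.0.16 in R 4.3.3. With 1 library per group the quasi-likelihood test could not be fitted, and no p-value was computed. Ratios have exact Clopper-Pearson intervals, counts exact Poisson intervals and within-library ratios exact conditional intervals (scipy 1.17.1). On counts simulated for this comparison with counting error alone, 97.4% of intervals over 4066 genes held the simulated ratio. Of genes at 2.5-fold 100% (50 higher) and 96% (50 lower) were called at 1.5-fold, as were 2.73% of 3960 unchanged genes. The changed genes were drawn only from genes with more counts than Nr1d2, so their shares do not cover Nr1d2 or most list genes.

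The genes and lists were chosen with earlier results of these data known. Named are all 10 genes, opposite genes within 5 kb, and called members of 4 lists or the 2 with most counts; list genes with no count could be named as such. Nampt, Klf9, Clock, Sphk1, Myh6 and Atp2a2 were named outside this rule after their values were seen.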

Additional observations from a re-analysis of the deposited data

How the results depend on the processing

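In all 7 alternatives Dbp stayed higher (ratio 2.81 to 3.43) and Nr1d1 lower (0.513 to 0.627), both called at 1.5-fold. Nr1d2 lay between 1.85 and 2.16 and Thra between 0.659 and 0.805, the last value when centred within opposite-strand class. The other count limits and the use of the transcript with most counts could not change Dbp, Nr1d1 or Nr1d2. Each has a single counted transcript and at least 10 counts in a library, so only the other scalings and the centring could move them. Of the 10 genes, 2 were called higher at 1.5-fold and 2 at 2-fold by size factors of DESeq2 and by total counts, the second being Nr1d2, and 2 were called lower at 1.5-fold with upper-quartile scaling, the second being Thra. The scalings differ by a constant: DESeq2 size factors and total counts shifted all log2 ratios by 0.11 and 0.17, and higher calls went from 36.7% of all calls to 54.1% and 62.2%; centring within class gave 50.8%.

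List medians rest on few genes. Scaled by size factors of DESeq2 and by total counts the median log2 ratio was 0.29 and 0.35 for the 4 of the 10 genes with a ratio. It was 0.84 and 0.90 for the 2 core clock genes with one and -0.70 and -0.64 for clock outputs. For thyroid hormone genes it was 0.19 and 0.25, and for sphingosine 1-phosphate genes 0.78 and 0.84. Centred within class it was 0.29 for the same 4 genes, -0.93 for outputs and 0.29 for thyroid genes. With at least 10 counts in a library it was -0.64 for outputs, -0.76 for thyroid and 0.54 for sphingosine genes. With any count it was 0.81 for 6 of the 10 genes, -0.01 for 5 core clock genes, -0.69 for outputs and 0.33 for sphingosine genes. Calls of outputs higher became 1 with size factors of DESeq2 and 1 with total counts, those of thyroid genes lower 0 with total counts and 2 when centred within class, and those of sphingosine genes higher 1 when centred within class. Beyond the low count limits, which change the genes included, the cause was not tested. No paired analysis was possible because each group has 1 library.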
